A study of Bos taurus with 24 samples.

Results

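The 5 genes described here encode innate immune sensors and cytokines: the Toll-like receptors TLR2 (ENSBTAG00000008008) and TLR4 (ENSBTAG00000006240), the co-receptor CD14 (ENSBTAG00000015032), interleukin 1 beta (IL1B, ENSBTAG00000001321) and the chemokine CXCL8, also called interleukin 8 (ENSBTAG00000019716). They were chosen by these Ensembl identifiers, and all 5 were found among the 24616 gene identifiers counted in each of 24 RNA sequencing libraries of cattle (Bos taurus). The libraries came from liver and mammary gland of 12 milking cows, 6 fed a ration built on alfalfa hay and 6 fed a ration built on corn stover for 12 weeks before slaughter. Each of the 4 groups (alfalfa hay liver, corn stover liver, alfalfa hay mammary gland, corn stover mammary gland) thus held 6 libraries. The cows were 228 to 254 days in milk, and 1 cow of each diet was of parity 2 and the others were of parity 3. Milk yield was 23.3 to 29.0 kg per day on alfalfa hay and 17.1 to 23.3 kg per day on corn stover. Yield thus ran almost wholly with diet, and diet and yield cannot be told apart here. The libraries were made from pieces of whole tissue, so fewer cells of a type and less RNA per cell cannot be told apart.

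TLR2 senses bacterial lipoproteins at the cell surface, and TLR4 senses lipopolysaccharide of Gram-negative bacteria. CD14 hands both kinds of ligand to the receptors and is made by macrophages and, as a soluble protein, by hepatocytes. Engaged receptors signal through MYD88 to NF-kB, which drives transcription of cytokine genes such as IL1B and CXCL8. IL1B is a fever-inducing cytokine made mainly by macrophages, and CXCL8 draws neutrophils into infected tissue. In the bovine udder this pathway is best known from mastitis, and in liver from the resident macrophages that clear bacterial products from portal blood.

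Library totals ran from 22579051 to 37954234 counts, and levels are given as CPM, counts scaled for the size of the library. TLR2, TLR4 and CD14 were read at 96 to 9153 counts in every library, IL1B at 78 to 633 counts in liver but at 1 to 16 counts in mammary gland, and CXCL8 at 1 to 88 counts in either tissue. All 5 genes passed the filter on low counts in liver, and 4 passed in mammary gland, where IL1B did not. The tissue labels could not be checked against named marker genes, because the deposited tables carry identifiers without names. Traces of the other tissue were small for these genes. At the level of mammary-type reads in each liver library (1.45 to 296 ppm of their mammary level), mammary RNA would supply at most 0.271 TLR2 reads and 0.357 CD14 reads of any liver library. Such reads stood at 147 to 296 ppm in the livers of alfalfa hay cows 1 to 5. They stood at 5.35 ppm in alfalfa hay cow 6 and at 1.45 to 38.9 ppm in corn stover livers. The deposited counts of alfalfa hay livers 1 to 5, and of no other library, carried a tissue letter in the header. This split follows diet in every cow except alfalfa hay cow 6, and its cause was not tested. At the level of liver-type reads in each mammary library (70.8 to 1976 ppm), liver RNA would supply at most 6.34 CD14 reads and 0.249 IL1B reads of any mammary library, both in corn stover cow 3, where they were 0.564% of 1124 CD14 reads and 3.55% of 7 IL1B reads. As a share of the reads of the gene, it was highest in corn stover cow 4, at 0.607% of 713 CD14 reads and 16.97% of a single IL1B read.

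One liver library stood apart in TLR2. The liver of alfalfa hay cow 3 held 2314 TLR2 reads, and the other 11 livers held 136 to 394. In CPM normalised within liver, its TLR2 level was 78.1, against 10.9 in the next highest liver, a ratio of 7.18. The same library was also the highest of the 12 livers in CD14, at 309 CPM (next 249 CPM), and in IL1B, at 21.4 CPM (next 15.6 CPM). It did not stand out in TLR4, at 10.2 CPM in a range of 4.46 to 14.1, or in CXCL8, at 0.54 CPM (16 reads) in a range of 0.063 to 2.65. Of the 12929 genes tested in liver, 1526 were highest in this library, and 307 to 2505 were highest in each of the others. Among the 1526, TLR2 had the second largest ratio to the next library. By the same ratio IL1B ranked 300th and CD14 468th. Genes at least 2-fold above all other livers numbered 53 in this library and 3 to 56 in each of the others, so its count was not outside that range. The mammary gland of the same cow was the highest of the 12 mammary libraries in TLR2, at 63.7 CPM (next 51.2). It was also the highest in IL1B, at 0.65 CPM from 16 reads. The next in IL1B, corn stover cow 6 at 0.52 CPM, also held 16 reads. The mammary gland of alfalfa hay cow 3 was second in CD14, at 63.9 CPM. It was the lowest in CXCL8, with a single read. This cow is kept in all comparisons, and values without it are given where it decides them.

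**Figure D1:**
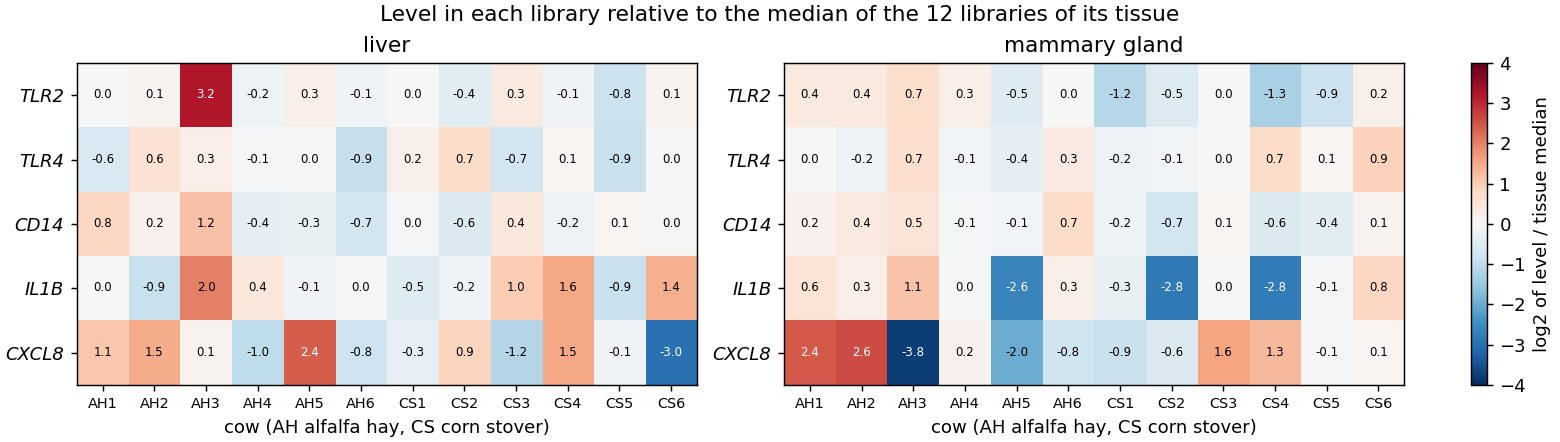
Heat map of the log2 ratio of each level to the median of the 12 libraries of its tissue, for 5 genes (rows) and 12 cows (columns) in liver and mammary gland; numbers in the cells give the same ratio. The TLR2 cell of alfalfa hay cow 3 in liver is the darkest of the liver panel, and the mammary CXCL8 row runs from the lowest value in alfalfa hay cow 3 to the highest in alfalfa hay cow 2.

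The tissue comparison asked where each gene was read most. TLR2, TLR4 and CXCL8 were higher in mammary gland, and CD14 and IL1B were higher in liver. All 5 differences passed the edgeR quasi-likelihood test at a Benjamini-Hochberg adjusted p below 0.05, as did 68.2% of the 13760 genes tested (33.5% higher and 34.7% lower in mammary gland; 70.7% had an unadjusted p below 0.05), so the count of 5 is read against a background in which most genes differ. Levels in this comparison are CPM scaled over all 24 libraries. They compare a gene between tissues and not one gene with another, since they are not corrected for gene length.

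TLR2 stood at 5.20 to 55.3 CPM (median 6.16) in alfalfa hay livers and at 3.39 to 7.81 CPM (median 5.91) in corn stover livers. In mammary gland it stood at 38.1 to 90.3 CPM (median 68.5) on alfalfa hay and at 22.2 to 64.1 CPM (median 33.5) on corn stover. All mammary libraries exceeded 11 of the 12 livers, and the liver of alfalfa hay cow 3 reached into the mammary range. The log2 difference between mammary gland and liver was 2.48 ± 0.35 (SE; edgeR adjusted p = 5.84e-07), a 5.57-fold higher level, and mammary gland was higher in 12 of 12 cows. The ratio within a cow was smallest in alfalfa hay cow 3, at 0.71 on the log2 scale, and the median over cows was 3.09. Without alfalfa hay cow 3 the fitted log2 difference was 3.04.

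TLR4 stood at 3.19 to 9.90 CPM (median 6.01) in the 12 livers and at 11.4 to 29.4 CPM (median 15.2) in the 12 mammary glands. The tissues did not overlap. Mammary gland exceeded liver by 1.55 ± 0.20 on the log2 scale (SE; edgeR adjusted p = 2.00e-07), and mammary gland was higher in 12 of 12 cows, by 0.48 to 2.59 on the log2 scale. Levels that did not overlap between the tissues were also found in 10.8% (higher in mammary gland) and 13.6% (lower) of the genes tested.

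CD14 went the other way from both receptors. It stood at 59.8 to 219 CPM (median 101) in liver and at 37.0 to 106 CPM (median 62.5) in mammary gland. The ranges overlapped, with 6 mammary libraries below every liver and 4 livers above every mammary library. The log2 difference was -0.76 ± 0.19 (SE; edgeR adjusted p = 0.00101). Mammary gland was lower in 11 of 12 cows, and in alfalfa hay cow 6 it was higher, at 106 against 59.8 CPM.

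IL1B showed the largest tissue difference of the 5 genes, 14.0-fold in favour of liver. It stood at 2.00 to 15.1 CPM (median 3.76) in liver and at 0.057 to 0.92 CPM (median 0.41) in mammary gland, without overlap. Mammary gland minus liver was -3.80 ± 0.43 on the log2 scale (SE; edgeR adjusted p = 1.26e-08), and mammary gland was lower in 12 of 12 cows. The mammary levels are those of 95 reads over 12 libraries. A library with 1 read has an exact Poisson interval (95%) of 0.025 to 5.57 reads and one with 16 reads an interval of 9.15 to 26.0, which cover counting error only.

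CXCL8 was read few times in both tissues. It stood at 0.045 to 1.86 CPM (median 0.35) in liver, from 2 to 66 reads, and at 0.058 to 4.84 CPM (median 0.79) in mammary gland, from 1 to 88 reads. Mammary gland was higher in 9 of 12 cows, with within-cow ratios from -3.25 to 4.22 on the log2 scale. The fitted log2 difference was 1.37 ± 0.57 (SE; edgeR adjusted p = 0.0346). This call was lost with the cow as a block (edgeR adjusted p = 0.0745), in limma voom (0.0914), in parity 3 cows only (0.103) and with library totals in place of scaling factors (0.492). It was also lost without any 1 of 5 cows (alfalfa hay cows 1 and 2, corn stover cows 3, 5 and 6), with adjusted p from 0.0510 to 0.117 in edgeR, and without the liver library of alfalfa hay cow 3 alone (0.0531). Over all alternatives its adjusted p ran from 0.00828 to 0.492.

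The sizes of these differences depend on how the tissues are scaled to each other. With library totals alone the median of all genes moved to -0.998 on the log2 scale, from -0.02 with the scaling factors used here (TMM), and the share of higher genes among those called fell from 49.1% to 16.6%. All 5 directions held under each of the 4 scalings tried. Relative to the median of all genes, TLR2 ranged from 2.49 to 2.50, TLR4 was at 1.57, CD14 ranged from -0.74 to -0.70, IL1B was at -3.79 and CXCL8 ranged from 1.37 to 1.43 on the log2 scale.

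**Figure D2:**
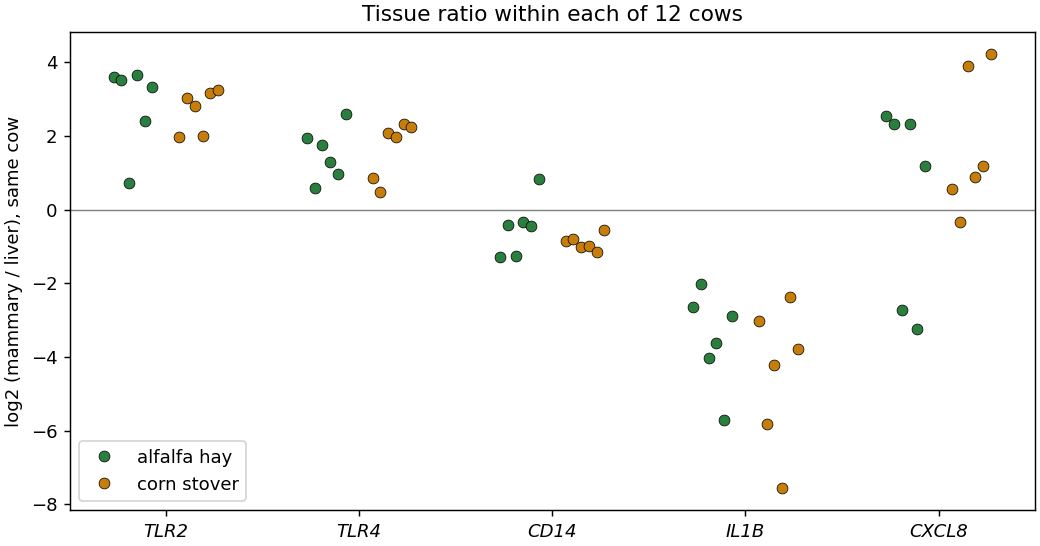
Log2 ratio of the mammary to the liver level within each of 12 cows, by gene and diet, from CPM scaled over all 24 libraries; 1 point per cow. TLR2 and TLR4 lie above 0 in 12 of 12 cows, IL1B lies below 0 in 12 of 12, CD14 lies below 0 in 11, and CXCL8 spans from -3.25 to 4.22.

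**Figure D3:**
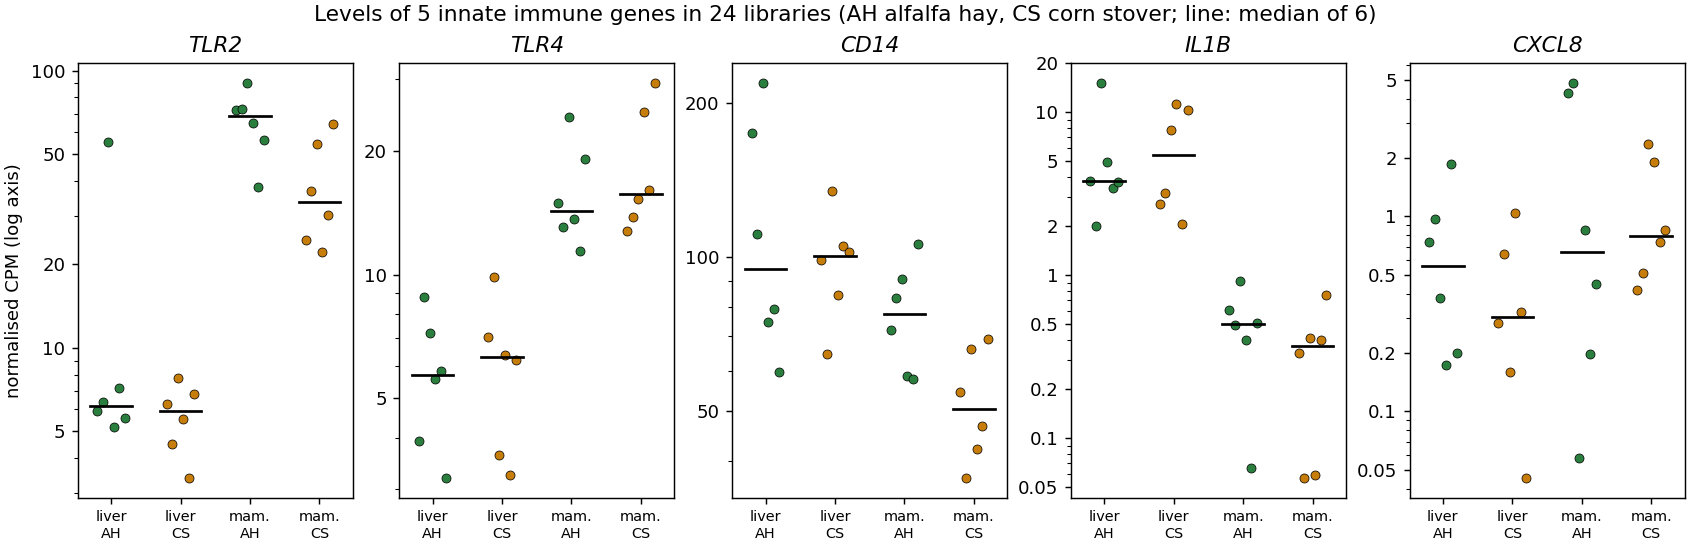
Level of each gene in CPM scaled over all 24 libraries (log axis), by tissue and diet, with 1 point per library and a line at the median of 6. The single TLR2 point at 55.3 CPM among the alfalfa hay livers is cow 3, and the mammary TLR2 and CD14 points of corn stover cows lie mostly below those of alfalfa hay cows.

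The mammary comparison asked whether diet moved these genes in the milk-producing tissue. TLR2 and CD14 had lower fitted levels on corn stover, at 0.587 and 0.673 times the alfalfa hay level, but neither passed the threshold after adjustment over all genes. None of the 12027 genes tested did (0%; smallest edgeR adjusted p = 0.165; levels without overlap in 0.191% higher and 0.15% lower), although 784 genes, or 6.52%, had an unadjusted p below 0.05, TLR2 and CD14 among them. With the filter set aside so that all 5 genes could be fitted, fitted levels were lower on the stover ration for 4 and higher for 1, and the median over the 5 was -0.58 on the log2 scale beside 0.0081 for all 18006 genes fitted. Of the 4, IL1B and CXCL8 were lower by less than their SE (-0.58 ± 0.67 and -0.68 ± 0.76). Of the 12027 genes tested with the filter, 50.2% were higher on corn stover. Levels in the diet comparisons are CPM scaled within a tissue.

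Mammary TLR2 stood at 27.5 to 63.7 CPM (median 49.3) on alfalfa hay and at 15.8 to 44.5 CPM (median 24.1) on corn stover. Below every alfalfa hay library lay 4 corn stover libraries, and those of corn stover cows 3 and 6, at 38.6 and 44.5 CPM, lay inside the alfalfa hay range. The means were 46.7 ± 12.2 and 27.4 ± 11.7 CPM (SD, n = 6 each). The log2 difference, corn stover minus alfalfa hay, was -0.77 ± 0.26 (SE; edgeR unadjusted p = 0.00995, adjusted p = 0.579), the 205th smallest p of the table. It ran from -0.96 to -0.65 when each library was left out in turn.

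Mammary CD14, the co-receptor, split the same libraries. It stood at 41.8 to 74.5 CPM (median 54.8) on alfalfa hay and at 27.0 to 48.1 CPM (median 35.9) on corn stover. Again 4 corn stover libraries lay below every alfalfa hay library, and again cows 3 and 6 were the exceptions, at 46.9 and 48.1 CPM. The means were 55.4 ± 12.7 and 37.3 ± 8.80 CPM (SD, n = 6 each), and the log2 difference was -0.57 ± 0.19 (SE; edgeR unadjusted p = 0.00953, adjusted p = 0.573). With days in milk as a covariate, which averaged higher on corn stover, the fitted log2 differences were -0.66 for TLR2 and -0.46 for CD14 (edgeR unadjusted p = 0.0320 and 0.0484). Over all alternatives the adjusted p ran from 0.304 to 0.968 for TLR2 and from 0.328 to 0.9997 for CD14. With library totals in place of scaling factors the unadjusted p was 0.0270 for TLR2 and 0.0694 for CD14, and with all 24 libraries in 1 edgeR fit it was 0.115 and 0.0446.

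TLR4, the other receptor, did not share this pattern. It stood at 8.27 to 17.1 CPM (median 10.3) on alfalfa hay and at 9.13 to 20.4 CPM (median 11.1) on corn stover in mammary gland, with 2 corn stover libraries above and none below the alfalfa hay range. The log2 difference was 0.21 ± 0.24 (SE; edgeR adjusted p = 0.936), which is smaller than its error.

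Of the cytokines, mammary IL1B was read 12, 9, 16, 8, 1 and 9 times in alfalfa hay cows 1 to 6 and 8, 1, 7, 1, 7 and 16 times in corn stover cows 1 to 6. At these counts a difference between the diets was not detected (fit without the filter: log2 difference -0.58 ± 0.67, SE; edgeR unadjusted p = 0.402, adjusted p = 0.841). Mammary CXCL8 was read 84, 88, 1, 17, 3 and 8 times in alfalfa hay cows 1 to 6 and 10, 9, 40, 32, 13 and 18 times in corn stover cows 1 to 6. The 2 highest and the 2 lowest levels of the 12 were all in alfalfa hay cows. The coefficient of variation of CXCL8 was 122% in the alfalfa hay group and 71.0% in the corn stover group. The log2 difference was -0.67 ± 0.78 (SE; edgeR adjusted p = 0.939), and its sign turned in limma voom and in parity 3 cows.

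The liver comparison asked the same of the hepatic levels. No gene of 12929 passed the threshold (0%; smallest edgeR adjusted p = 0.806), and 354, or 2.74%, had an unadjusted p below 0.05. None of the 5 genes separated the diets without overlap, as 0.0387% (higher on corn stover) and 0.0232% (lower) of the genes tested did. With the filter set aside, fitted levels were lower on corn stover for 3 of the 5 genes and higher for 2. Their median was -0.30 on the log2 scale, beside 0.0029 for all 18217 genes fitted. Of the 12929 genes tested with the filter, 50.6% were higher on corn stover. TLR2 was the only one of the 5 genes with an unadjusted p below 0.05, with a log2 difference of -1.34 ± 0.57 (SE; edgeR unadjusted p = 0.0315, adjusted p = 0.99999). That value rested on alfalfa hay cow 3. Its group stood at 7.41 to 10.2 CPM without it, and the corn stover livers stood at 4.74 to 10.9 CPM (median 8.17). Without that library the log2 difference was -0.11 ± 0.22 (SE; edgeR unadjusted p = 0.641), and DESeq2, which sets aside genes with an extreme count, gave no p for TLR2 in liver.

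Liver CD14 stood at 83.5 to 309 CPM (median 135) on alfalfa hay and at 92.3 to 187 CPM (median 139) on corn stover. The corn stover livers lay wholly inside the alfalfa hay range. The log2 difference was -0.31 ± 0.30 (SE; edgeR adjusted p = 0.99999) and -0.05 ± 0.27 without the liver of alfalfa hay cow 3. Liver TLR4 stood at 4.46 to 12.5 CPM (median 8.11) on alfalfa hay and at 4.53 to 14.1 CPM (median 8.73) on corn stover, and the fit gave 0.05 ± 0.30 on the log2 scale (SE; edgeR adjusted p = 0.99999).

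Liver IL1B spread widely among the corn stover cows. Cows 3, 4 and 6 stood at 10.8, 15.6 and 14.3 CPM, and cows 1, 2 and 5 at 3.73, 4.57 and 2.89 CPM. On alfalfa hay, 5 cows stood at 2.84 to 7.09 CPM and cow 3 at 21.4 CPM. The log2 difference was 0.15 ± 0.51 (SE; edgeR adjusted p = 0.99999). Without the liver of alfalfa hay cow 3 it was 0.77 ± 0.43 (SE; edgeR unadjusted p = 0.0965, adjusted p = 0.999995). Liver CXCL8 stood at 0.25 to 2.65 CPM (median 0.79) on alfalfa hay and at 0.063 to 1.44 CPM (median 0.42) on corn stover, and the fit gave -0.81 ± 0.68 on the log2 scale (SE; edgeR adjusted p = 0.99999). With days in milk as a covariate it was -1.91 (edgeR unadjusted p = 0.0389, adjusted p = 0.9998). Corn stover cow 6, at the third highest liver IL1B level of all 12 cows, had the lowest liver CXCL8 level, with 2 reads. Corn stover cow 4, at the second highest liver IL1B level, had the second highest liver CXCL8 level, with 43 reads. Over the 12 livers the Pearson r of IL1B with CXCL8 was -0.29 (permutation p = 0.360, adjusted 0.799).

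**Figure D4:**
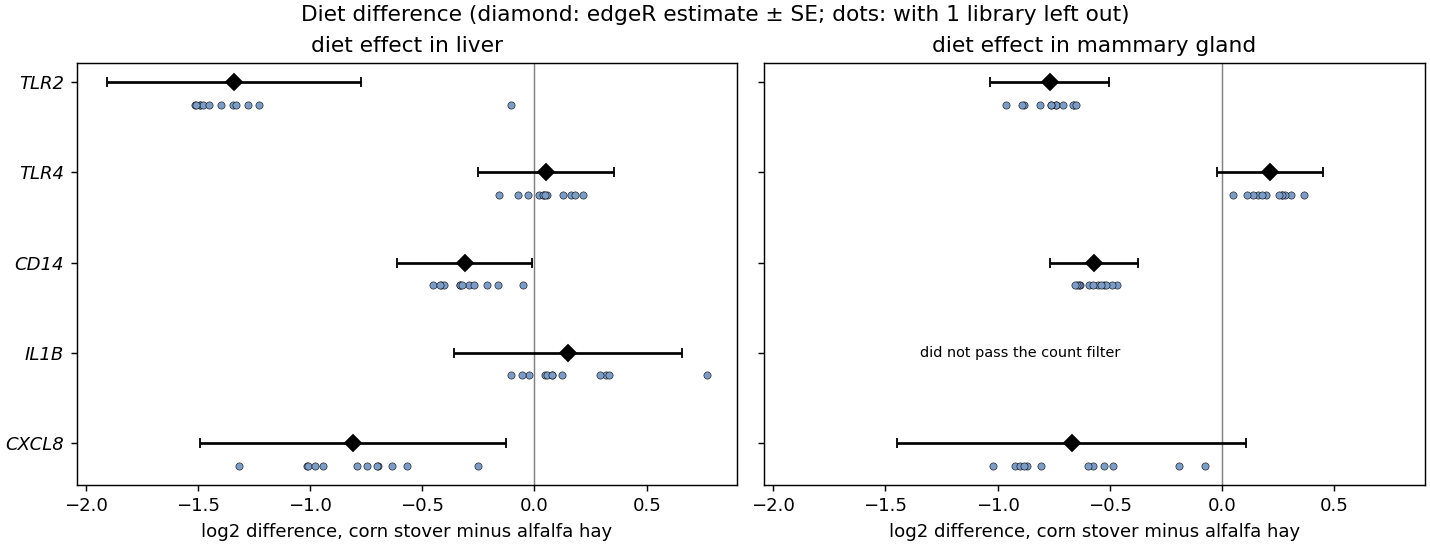
Log2 difference between the diets (corn stover minus alfalfa hay) in liver and in mammary gland: diamonds with bars are the edgeR estimate ± SE, and dots are the estimates with each library left out in turn; IL1B in mammary gland did not pass the count filter. In liver a single dot for TLR2, at -0.11, lies far from the others, while in mammary gland the TLR2 dots stay between -0.96 and -0.65.

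Whether the diet difference itself differed between the tissues was tested by the interaction over all 24 libraries. No gene of 13760 passed (0%; 700 genes, or 5.09%, at an unadjusted p below 0.05, none of the 5 among them). The log2 interaction, mammary minus liver, was 0.55 ± 0.66 for TLR2, 0.14 ± 0.40 for TLR4, -0.28 ± 0.38 for CD14, -0.73 ± 0.81 for IL1B and 0.11 ± 1.08 for CXCL8 (SE; edgeR adjusted p = 0.9999 for each). The sign for TLR2 turned without the liver of alfalfa hay cow 3, to -0.68 (edgeR adjusted p = 0.994). Without that library the IL1B interaction was -1.35 ± 0.75 (SE; edgeR unadjusted p = 0.0828, adjusted p = 0.994). The lower mammary TLR2 and CD14 levels on corn stover were thus not shown to be particular to mammary gland.

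How the 5 genes varied together was measured within each tissue, on log2(CPM + 0.1) over 12 libraries, for 20 gene pairs. In mammary gland TLR2, CD14 and IL1B rose and fell together across cows. TLR2 and CD14 had a Pearson r of 0.75 (permutation p = 0.00543, adjusted over the 20 pairs 0.0487) and a Spearman rho of 0.81 (permutation p = 0.00203, adjusted 0.0135). Without the 2 libraries farthest from the median TLR2 level r was 0.73, and it was 0.40 among the alfalfa hay cows and 0.66 among the corn stover cows. With the diet means taken out r was 0.55 for this pair. It was then 0.72 for TLR2 with IL1B and 0.77 for CD14 with IL1B. The permutations ran over all 12 libraries without regard to diet. Among all 12026 other genes tested in mammary gland, CD14 had the 46th highest r with TLR2.

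IL1B followed both sensors in mammary gland despite its few reads. Its r was 0.72 with TLR2 (permutation p = 0.00974, adjusted 0.0487; rho 0.85, permutation p = 0.00102, adjusted 0.0102) and 0.74 with CD14 (permutation p = 0.00575, adjusted 0.0487; rho 0.88, permutation p = 0.00028, adjusted 0.0056). Without the 2 libraries farthest from the median of the sensor, r was 0.72 in both pairs. A single IL1B read was found in 3 libraries, those of alfalfa hay cow 5 and corn stover cows 2 and 4. Without these 3 the r over 9 libraries was 0.74 with TLR2 and 0.56 with CD14. Within the diets r was 0.94 and 0.60 with TLR2, and 0.64 and 0.88 with CD14, on alfalfa hay and corn stover.

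No pair with TLR4 or CXCL8 passed the threshold. In mammary gland the r of TLR4 was 0.12 with TLR2, 0.16 with CD14 and 0.32 with IL1B (adjusted permutation p = 0.987, 0.987 and 0.796). Without the 2 libraries farthest from the median (of TLR2 in the first pair, of TLR4 in the others) these r were 0.38, 0.52 and 0.66, and among the 6 alfalfa hay cows they were 0.61, 0.73 and 0.76, against 0.25, 0.23 and 0.17 among the corn stover cows. The r of CXCL8 with the other 4 genes ran from -0.13 to 0.10 (adjusted permutation p = 0.987 for each). These values depended on alfalfa hay cow 3 with its single CXCL8 read, and without that cow they were 0.43 with TLR2, 0.37 with IL1B, 0.23 with CD14 and 0.09 with TLR4. In liver, TLR2 and IL1B had an r of 0.62 (permutation p = 0.00953, adjusted 0.0487; rho 0.38, permutation p = 0.219, adjusted 0.65). It was 0.39 without alfalfa hay cow 3 and 0.14 without that cow and corn stover cow 5, so the value over 12 livers depended on those libraries. Within the diets this r was 0.86 on alfalfa hay, cow 3 included, and 0.67 on corn stover, cow 5 included. With the diet means taken out it was 0.70. Liver TLR2 and CD14 had an r of 0.66 (permutation p = 0.0179, adjusted 0.0716; rho 0.53, adjusted 0.408), which was 0.27 without alfalfa hay cow 3 and 0.54 without that cow and corn stover cow 5. The libraries share depth and scaling in all these pairs. The share of reads in the 10 most abundant genes, which the scaling follows, had an r of -0.31 to 0.16 with the 5 genes in mammary gland (adjusted permutation p of at least 0.929 over 10 relations, Spearman 0.903), a relation computed after the pairs were seen. Without the 2 libraries farthest from the median share (alfalfa hay cow 4 and corn stover cow 1) r was -0.59 with TLR2, -0.67 with IL1B, -0.52 with CXCL8, -0.38 with CD14 and 0.08 with TLR4. Its part in the gene pairs was not tested.

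**Figure D5:**
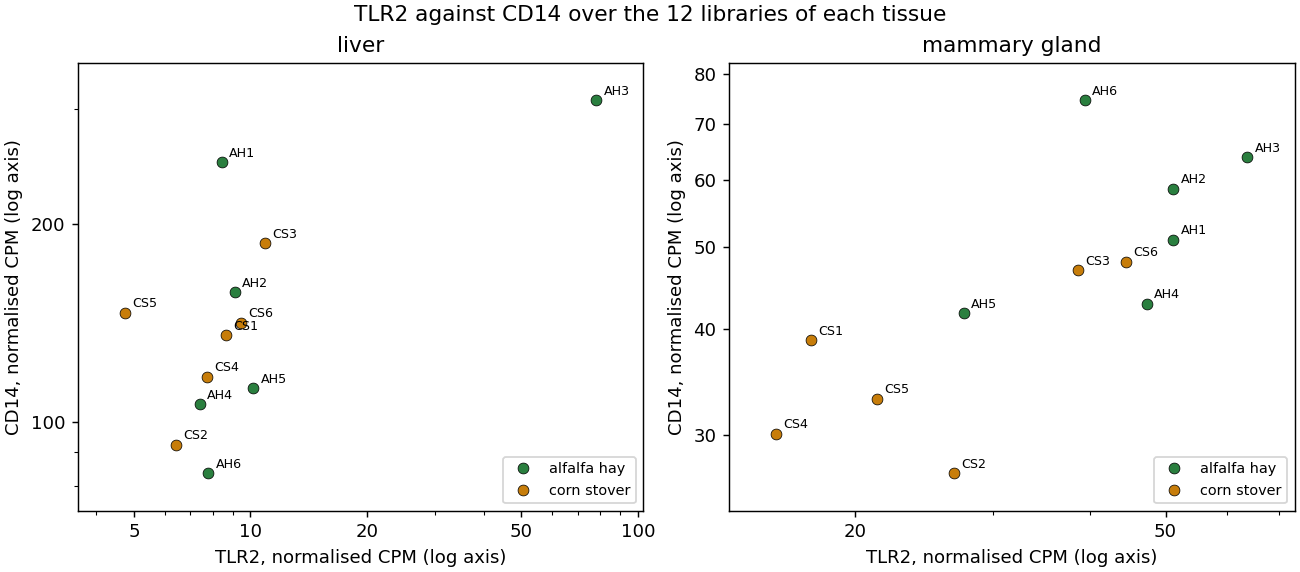
TLR2 against CD14 in CPM scaled within a tissue (log axes), with 1 point per library labelled by diet and cow. In mammary gland the points rise together (r = 0.75), while in liver alfalfa hay cow 3 lies alone at the upper right (r = 0.66, 0.27 without it and 0.54 without it and corn stover cow 5).

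A relation between a cow's liver level and its mammary level was not shown for any of the 5 genes. Over 12 cows the r between liver and mammary level was 0.51 for TLR2 (permutation p = 0.0673, adjusted over 5 genes 0.337; rho 0.43), and 0.20 without alfalfa hay cow 3 and corn stover cow 5. For the other 4 genes r ran from -0.06 to 0.34 (adjusted permutation p from 0.704 to 0.86).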

How the data were processed

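Whole-tissue RNA of 12 cows was sequenced in 24 libraries. The authors deposited 1 table of raw counts for each library, by Ensembl gene. HTSeq 0.6.1, SAMtools 1.1 and TopHat2 2.0.9 are named, with build UMD3.1, per the submitters' processing notes. The sources used here give neither annotation release nor strand setting, so reads shared with overlapping or near-identical genes cannot be traced.

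The 5 genes and their names were taken as given for these identifiers. The files do not pair identifiers with names, and 0 of 24616 matched the RefSeq gene table of another build, so the fixed list of 51 pathway genes and the cell type markers could not be applied, and no positions are given. The genes and lists were chosen with earlier results of these data known. The named genes are these 5 plus, for each gene and tissue, the gene with the highest correlation, of which 4 without names are printed.

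Models were fitted on the whole table with edgeR 4.0.16 (quasi-likelihood, TMM, filterByExpr with minimum count 10 and minimum total 15) in R 4.3.3, with Benjamini-Hochberg adjustment over all genes tested at 0.05. Diet was fitted on 12 libraries per tissue, tissue and interaction on 24 libraries with 4 group means. SE is the log2 change divided by the root of F. CPM are counts over library total times TMM factor. The labels name no separate batches, and p-values of the diet fits measure the spread between these cows. The tissue and interaction fits with group means have no term for the cow, so both libraries of a cow count as independent there. Animal measurements were the same for both tissues of all 12 cows, so these were paired by cow; deviations of paired libraries correlated at -0.15 to 0.29. Permutation tests were two-sided with 100000 resamples (NumPy 2.4.6). Traces of the opposite tissue were taken from 11 mammary-type and 60 liver-type genes of at least 1000 CPM and at least 1000 times their level in the other tissue. Alternatives were RLE, upper-quartile and no scaling, no filter, 1 CPM in 6 libraries, DESeq2 1.42.0, limma 3.58.1 (voom), days in milk, parity 3 cows, all 24 libraries, the replicate or cow block and each library or cow left out. Fits were tested on simulated data.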

Additional observations from a re-analysis of the deposited data

Results flagged for a closer look

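Of 20 groups of 6 levels (5 genes in 4 groups), 2 held a library far from the others. The rule was Dixon's gap to the next library over the range, on unlogged CPM. Chance would give about 1 for independent groups of normally spread levels. These groups share libraries and a normal spread was not tested, so that number is only a rough guide. In both groups the library was the liver of alfalfa hay cow 3. Its TLR2 level was 78.1 CPM, against 7.41 to 10.2 CPM in the other 5 alfalfa hay livers. Its IL1B level was 21.4 CPM, against 2.84 to 7.09 CPM. Whether the cow, the piece of tissue or the library gave these levels was not tested. The mammary library of this cow was also the highest of 12 in both genes. For IL1B it held 16 reads, as did the next library, that of corn stover cow 6.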

How the results depend on the processing

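No diet or interaction value of the 5 genes that had an adjusted p was called under the alternatives run, and 4 or 5 genes were called between tissues. DESeq2 gave no adjusted p for the interaction of any of the 5 (unadjusted p from 0.341 to 0.896) or for liver TLR2, mammary IL1B was fitted only without the filter, and CXCL8 did not pass 1 CPM in 6 libraries in the diet fits. Of the genes tested, the count called for diet in liver was 0 and became 3 in DESeq2 and 3 with all 24 libraries; in mammary gland 0 became 42 in DESeq2 and 12 with the replicate block; for the interaction 0 became 74 in DESeq2 and ran from 0 to 2 over the cows left out. The replicate number names different cows in the 2 diets, same-numbered libraries correlated at 0.06 to 0.60 in liver and -0.26 to 0.29 in mammary gland, and not every library correlated best with its own number, so the block pairs by number only. With the cow as a block the 1 call lost was CXCL8 between tissues. Signs turned for these uncalled values (log2): liver TLR4, -0.12 with days in milk and -0.16 to 0.22 over the libraries left out; liver IL1B, -0.10 to 0.77 over the libraries left out; mammary CXCL8, 0.21 in limma voom, 0.11 in parity 3 cows and 0.18 with the replicate block. For the interaction, TLR2 was -0.15 in limma voom, -0.21 with the cow as a block, -0.68 without the liver of alfalfa hay cow 3 (added after seeing the data) and -0.57 to 0.74 over the cows left out; TLR4 ran from -0.069 to 0.42, and CXCL8 from -0.67 to 0.61, with -0.048 under library totals. The cause was not tested. Counts of 1 to 16 limit IL1B in mammary gland, and counts of 1 to 88 limit CXCL8.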

Other observations

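The gene whose level followed each of the 5 most closely was sought among the genes tested in a tissue, over 12 libraries. The highest Pearson r ran from 0.862 to 0.942 over the 9 searches, which are the best of 12026 or 12928 genes each and carry no test. In mammary gland TLR2 was followed most closely by ENSBTAG00000000250 (r = 0.93, mean 10.96 CPM) and CD14 by ENSBTAG00000047265 (r = 0.90, mean 2.01 CPM). In liver TLR4 was followed by ENSBTAG00000007231 (r = 0.94, mean 1.38 CPM), a value that was also 0.94 without alfalfa hay cow 3. For liver TLR2 the closest gene was ENSBTAG00000003892 (r = 0.91, mean 21.8 CPM), and without alfalfa hay cow 3 its r was 0.26.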
